A study of Mus musculus with 22 samples.

Results

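The mRNAs described here encode integrin subunits and components of the hemidesmosome. They are the integrin chains Itga2, Itga3, Itga5, Itga6, Itgav, Itgb1, Itgb4 and Itgb6, the transmembrane collagen Col17a1 and the cytolinker Dst. These genes were listed by name, without use of their values, and all 10 were present among the 24421 genes of every count file. Sequencing covered mouse primary bladder urothelial organoids, epithelial cultures grown as small three-dimensional structures, carrying the label ARID1A WT or ARID1A KO. Arid1a encodes a subunit of the BAF chromatin remodelling complex. Each genotype contributed 3 libraries of total RNA, 3 of the polysome fraction of a gradient (mRNAs bound by several ribosomes) and 3 of the subpolysome fraction (mRNAs with few or no ribosomes), 18 libraries in all. A further 4 libraries held total RNA of bladder cancer organoids, described in the labels as isogenic, 2 labelled WT and 2 labelled KO. The way in which Arid1a was inactivated, the part of the gene removed, and the strain, age and number of mice or clones behind the organoids are not given in the labels. No source says whether replicates were separate animals or cultures, so every p-value here refers to the spread among libraries of a group, possibly technical only.

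An integrin is a pair of one alpha and one beta chain that spans the plasma membrane and binds matrix outside the cell. Most chains listed here pair with the beta 1 chain (Itgb1) and link matrix to actin: the alpha 5 chain (Itga5) forms the fibronectin receptor, alpha 2 (Itga2) a collagen receptor and alpha 3 (Itga3) a laminin receptor. The alpha V chain (Itgav) with beta 6 (Itgb6) is an epithelial receptor that activates latent TGF-beta. In basal cells of stratified epithelia and urothelium, alpha 6 (Itga6) pairs instead with beta 4 (Itgb4), which binds laminin-332 below and the keratin network inside. That pair, the collagen XVII chain (Col17a1) and BPAG1, the epithelial product of Dst, build the hemidesmosome, the junction that fixes the basal cell to the basement membrane.

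Levels are given in CPM, read counts relative to the library's TMM-scaled total, with scaling factors computed over all 22 libraries. Totals ran from 66227600 to 74605489 counts in primary total RNA, from 64911189 to 76594655 in polysomes, from 39245248 to 51628570 in subpolysomes and from 48429672 to 55431426 in the cancer organoids, so a gene at 1 CPM of its library's own total rested on at least 39.2 counts. Arid1a, the targeted gene, read 114, 130 and 116 CPM in WT total RNA against 74.9, 74.8 and 83.8 CPM in the KO libraries. The residual reads may lie outside the removed part, so they check the labels only in direction, and in total RNA only. KO polysome libraries, at 23.6, 19.3 and 13.9 CPM of Arid1a, overlapped WT polysome libraries at 34.6, 24.8 and 21.6 CPM. In subpolysomes Arid1a was not lower in KO, at 75.3, 64.3 and 62.4 CPM against 60.3, 62.8 and 55.8 CPM in WT. Among the cancer libraries, Arid1a had 66.9 CPM in the library labelled WT 1, 196 CPM in that labelled WT 2, 175 CPM in that labelled KO 1 and 56.7 CPM in that labelled KO 2. The Arid1a counts of the libraries labelled WT 1 and KO 1 thus ran against their labels, and cancer values are therefore given by label and not as a genotype. The one labelled KO 2 differed further from the other cancer libraries in Ddx3y, a Y-linked gene, at 0.192 CPM against 42.6 to 58 CPM. Summed markers of basal urothelium (Krt5, Krt14, Krt15, Trp63 and Cd44) lay between 10749 and 12714 CPM in WT total RNA and between 11728 and 12695 CPM in KO total RNA, and 5 of 5 were detected in both. The 7 luminal markers (uroplakins and simple keratins) summed to 780 to 827 CPM in WT and 1244 to 1475 CPM in KO total RNA. In the cancer organoids they summed to 6.82 to 120 CPM, with Upk2 and Upk3a at 0 in all 4 libraries. Epcam and Cdh1 together lay between 704 and 818 CPM in WT and between 344 and 415 CPM in KO total RNA. Fibroblast markers summed to at most 3.64 CPM in primary total RNA and endothelial markers to at most 0.700 CPM. Col1a2, Lum, Kdr, Emcn and Ptprc were at 0 in all 6 of those libraries. The smooth muscle list summed to 4.92 to 5.57 CPM in WT and 16.1 to 17.5 CPM in KO, nearly all Acta2, and the immune list to 8.45 to 9.90 CPM in WT and 18.2 to 20.2 CPM in KO, nearly all Cd68, while Des was at 0 in KO and Adgre1 in both. The Schwann and nerve list was at most 0.383 CPM in primary total RNA and 4.50 to 88.9 CPM in cancer, nearly all Tubb3, with Sox10 at 0 throughout.

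The genes lie on 7 chromosomes (GRCm38). Itgb1 is at chr8:128685654-128733200 on the plus strand, and Itga5 at chr15:103344286-103366763 on the minus strand. Itga2 (chr13:114833081-114932100) and Itga3 (chr11:95044474-95076801) are on the minus strand. On chromosome 2 lie Itgb6 (60598292 to 60722643, minus), Itga6 (71745616 to 71858416, plus) and Itgav (83724397 to 83806916, plus). Itgb4 is at chr11:115974709-116008412 (plus), Col17a1 at chr19:47646344-47692094 (minus) and Dst at chr1:33908225-34308661 (plus). The strand used in counting is not given, and antisense genes overlap Itga6, Itgav, Itgb4 and Dst without an entry in the count files, so reads from those antisense genes could not be told apart from the listed gene's. Counts per gene merge isoforms, which matters most for Dst, annotated with 20 transcripts and known for further isoforms in muscle and nerve.

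Promoter sequence is shown for 3 genes picked by their values in the genotype comparison, so it does not stand for the other genes. Itga5 and Itgb1, the chains of the fibronectin receptor, had the largest falls of the 10 genes in KO total RNA, and Col17a1 was among those that were not called. Each sequence is the 250 bases before the start site in RefSeq (GRCm38.p6), read 5′ to 3′ on the gene's strand: chr15:103366792-103367041 (minus) for Itga5, chr8:128685404-128685653 (plus) for Itgb1 and chr19:47692043-47692292 (minus) for Col17a1. Capitals mark matches, on either strand, to the GC box GGGCGG bound by Sp1-family factors, the TATA box TATAAA and the TEAD motif GGAATG.
Itga5: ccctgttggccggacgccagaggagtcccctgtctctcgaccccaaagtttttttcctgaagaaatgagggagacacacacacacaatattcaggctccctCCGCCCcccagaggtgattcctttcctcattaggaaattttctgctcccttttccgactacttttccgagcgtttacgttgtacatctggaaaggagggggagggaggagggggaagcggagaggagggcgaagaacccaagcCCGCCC
Itgb1: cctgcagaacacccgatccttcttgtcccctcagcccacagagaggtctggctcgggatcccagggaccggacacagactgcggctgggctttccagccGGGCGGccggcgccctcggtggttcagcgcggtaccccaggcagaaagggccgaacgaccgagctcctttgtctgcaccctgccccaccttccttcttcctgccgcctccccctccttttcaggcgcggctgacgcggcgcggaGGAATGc
Col17a1: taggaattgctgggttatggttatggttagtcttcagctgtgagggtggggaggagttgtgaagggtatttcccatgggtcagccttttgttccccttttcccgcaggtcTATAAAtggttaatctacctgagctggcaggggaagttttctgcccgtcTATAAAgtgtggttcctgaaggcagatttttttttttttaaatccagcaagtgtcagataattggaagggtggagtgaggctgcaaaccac
The Itga5 promoter held GC boxes that began 149 and 6 bases before the start, both as the reverse complement. The Itgb1 promoter held a GC box that began 151 bases before the start and a TEAD motif that began 7 bases before it, and the Col17a1 promoter held TATA boxes that began 140 and 91 bases before it. Promoters of 8 of the 10 genes, 11 promoters in all, were present in the RefSeq table, those of Itga6 and Itgb4 being absent from it. Of these 11, 5 held a GC box, against 32.7% of 32851 promoters. A TATA box was found in 1 of 11 against 12.4%, a TEAD motif in 1 of 11 against 12.6%, and the AP-1 motif TGANTCA in 0 of 11 against 6.75%. Dst, called higher in KO total RNA, held GC boxes that began 92, 85, 73 and 35 bases before a start. Itga3, called lower, held GC boxes as well, while Itga2, Itgav and Itgb6, also called lower, held no match to any of these motifs. These matches describe letters only, and no binding was measured.

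Per kilobase of exon sequence, WT total RNA was led by Itgb1 at 109 ± 1.58 CPM per kb (mean ± SD, n = 3), Col17a1 at 106 ± 4.63, Itga3 at 96.5 ± 2.09 and Itgb4 at 74.5 ± 1.78. The values of Itgb1 and Col17a1 lay within their spread of each other. Itga6 followed at 21.7 ± 0.958 CPM per kb, then Dst at 11.1 ± 0.753 and Itgav at 9.04 ± 0.25. Itga2 (8.04 ± 0.541) and Itgb6 (7.69 ± 0.486) did not differ beyond their spread, and Itga5 was lowest at 5.19 ± 0.249. In KO total RNA the leading order changed: Col17a1 stood first at 105 ± 5.36 CPM per kb, Itgb4 at 77.4 ± 1.98 and Itga3 at 73.9 ± 0.954 followed, and Itgb1 came next at 66.5 ± 2.56. Divided by the longest transcript instead of all exon sequence, Itga6 was at 45.4 ± 2.01 and Dst at 19.7 ± 1.33 CPM per kb in WT, and Itgb6 (11.4 ± 0.719) then stood above Itga2 (8.07 ± 0.543).

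**Figure D1:**
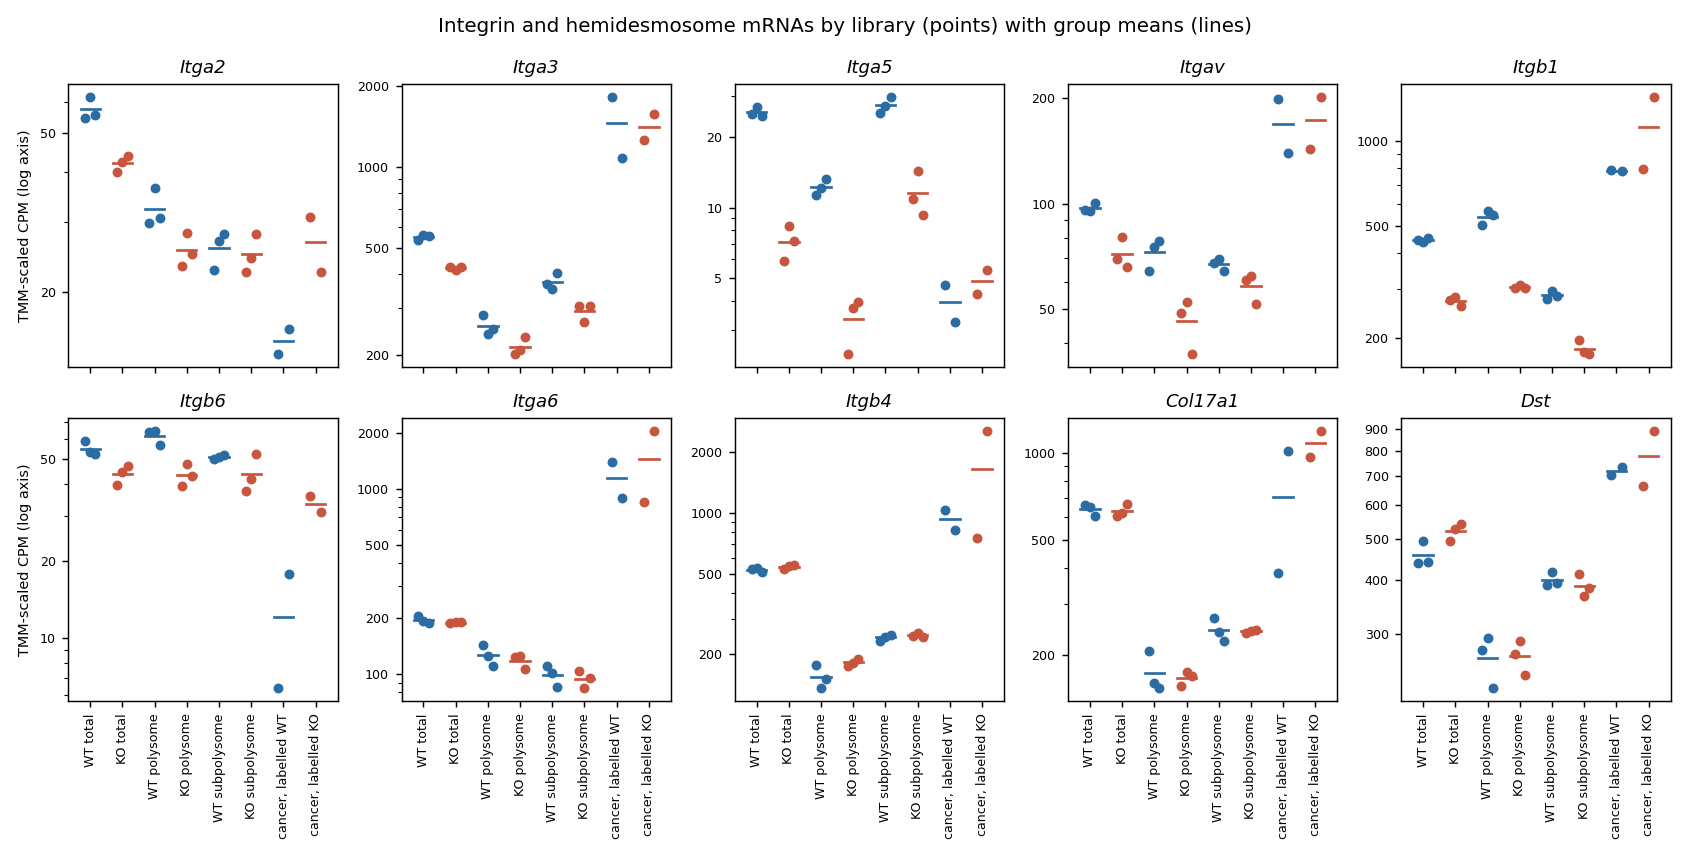
TMM-scaled CPM of each gene (log axis, one panel per gene) in each of the 22 libraries, with points for libraries and lines for group means, WT in blue and KO in red. In total RNA, Itga5 lay at 24.7 to 27 CPM in WT and 5.88 to 8.36 CPM in KO, while Itga6 lay at 188 to 205 and 189 to 190 CPM.

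The first comparison asks which of these mRNAs differ in level between KO and WT primary organoids. In total RNA the actin-linked integrins were lower in KO and the hemidesmosome genes, apart from a small rise of Dst, were not called. Of the 10 genes 6 were called lower and 1 higher, at an adjusted p below 0.05 over all genes tested (edgeR). The genotypes differed widely: 26.3% of the 13198 genes tested were called lower and 27% higher. The share of these 10 genes called lower stood above that background, and the share called higher below it. Their median log2 difference was -0.33, against 0.00 for all genes tested. In bulk RNA, fewer cells that carry an mRNA and less of it per cell cannot be told apart. The luminal, Epcam and Cdh1, Acta2 and Cd68 levels moved with genotype, as given above. Of the 7 luminal markers 6 were called higher in KO and 1 lower. The 5 basal markers, though near equal in sum, were all called, 3 higher and 2 lower. The part of these markers' changes in the differences of the 10 genes was not tested.

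Itga5, the fibronectin receptor's alpha chain, fell furthest. Its level was 25.2, 27 and 24.7 CPM in the 3 WT libraries and 5.88, 8.36 and 7.2 CPM in the 3 KO libraries. Every KO library lay below every WT library, by a wide gap. The fitted difference was 3.51-fold (log2 -1.81, SE 0.11, edgeR adjusted p = 9.83e-08), which placed Itga5 at percentile 2.88 of all genes tested, ordered from the lowest log2 difference.

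Itgb1, the shared beta chain of most of these receptors, measured 446, 441 and 453 CPM in WT against 274, 280 and 260 CPM in KO. Both sets were tight and far apart. The fall was 1.61-fold (log2 -0.69, SE 0.04, edgeR adjusted p = 1.21e-07). With the larger fall of Itga5, the library's Itga5 reads per Itgb1 read dropped as well, from 0.0564, 0.0613 and 0.0544 in WT to 0.0214, 0.0298 and 0.0277 in KO. This ratio does not depend on library scaling.

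The collagen receptor chain Itga2 measured 54.7, 61.8 and 55.5 CPM in WT against 40.1, 42.3 and 43.8 CPM in KO, a fall of 1.33-fold (log2 -0.42, SE 0.06, edgeR adjusted p = 6.46e-05). The laminin receptor chain Itga3 measured 537, 559 and 557 CPM in WT against 425, 416 and 426 CPM in KO libraries (1.28-fold, log2 -0.36, SE 0.04, adjusted p = 7.57e-06). Neither gene's groups overlapped. Itga3 fell less than Itgb1, and its reads per Itgb1 read were 1.21, 1.27 and 1.23 in WT and 1.55, 1.48 and 1.64 in KO.

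Itgav and Itgb6, the chains of the TGF-beta-activating receptor, both fell. Itgav measured 96.1, 95.2 and 100.2 CPM in WT against 69.4, 80.3 and 66.1 CPM in KO libraries (1.32-fold, log2 -0.41, SE 0.07, edgeR adjusted p = 0.000286). Itgb6 measured 58.6, 53 and 52.4 CPM in WT against 39.7, 44.4 and 47 CPM in KO libraries (1.23-fold, log2 -0.30, SE 0.07, adjusted p = 0.00372). The KO values lay below all WT values for both.

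The hemidesmosome genes showed no such fall. Itga6 measured 205, 194 and 188 CPM in WT against 189, 190 and 190 CPM in KO, and the 95% interval of its log2 difference ran from -0.11 to 0.08 (edgeR adjusted p = 0.784). Its partner Itgb4 measured 527, 533 and 509 CPM in WT against 528, 546 and 555 CPM in KO libraries (log2 0.08, interval -0.002 to 0.17, adjusted p = 0.0927). Col17a1 measured 659, 652 and 608 CPM in WT against 607, 620 and 668 CPM in KO libraries (log2 0.01, interval -0.10 to 0.12, adjusted p = 0.871). Groups overlapped for these 3 genes, and the intervals bound any fall of Itga6, Itgb4 or Col17a1 to less than the falls fitted for the 6 called integrins. Dst measured 439, 494 and 442 CPM in WT against 495, 526 and 540 CPM in KO, a rise of 1.16-fold (log2 0.21, SE 0.05, adjusted p = 0.00421), with the lowest KO value just above the highest WT value.

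**Figure D2:**
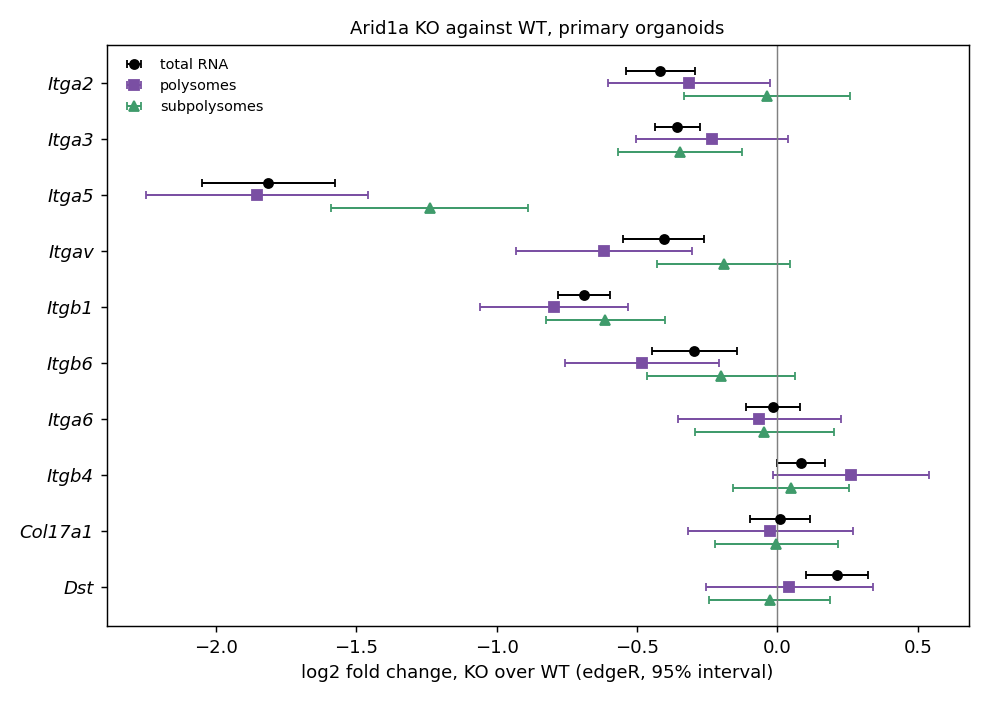
Log2 fold change of KO over WT for each gene in total RNA, polysomes and subpolysomes (edgeR estimate with 95% interval, 3 libraries per genotype in each). Itga5 and Itgb1 lie left of 0 in all 3 kinds of RNA, and the intervals of Itga6, Itgb4 and Col17a1 include 0 in all 3.

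The beta chains therefore differed in their relation to each other. Reads of Itgb4 per read of Itgb1 were 1.18, 1.21 and 1.12 in WT total RNA and 1.92, 1.95 and 2.14 in KO total RNA. In polysomes the same ratio was 0.351, 0.242 and 0.279 in WT and 0.587, 0.589 and 0.631 in KO, and in subpolysomes 0.847, 0.832 and 0.882 in WT and 1.26, 1.42 and 1.38 in KO. KO libraries lay above WT libraries in each kind of RNA, without overlap, and the ratio needs no scaling between libraries. Itga6 reads per Itgb4 read, by contrast, were 0.389, 0.364 and 0.37 in WT and 0.358, 0.348 and 0.343 in KO total RNA. Col17a1 reads per Itgb4 read were 1.25, 1.22 and 1.2 in WT and 1.15, 1.14 and 1.2 in KO. Integrin protein pairs were not measured, and a ratio of reads between genes of unlike length is not a ratio of molecules.

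**Figure D3:**
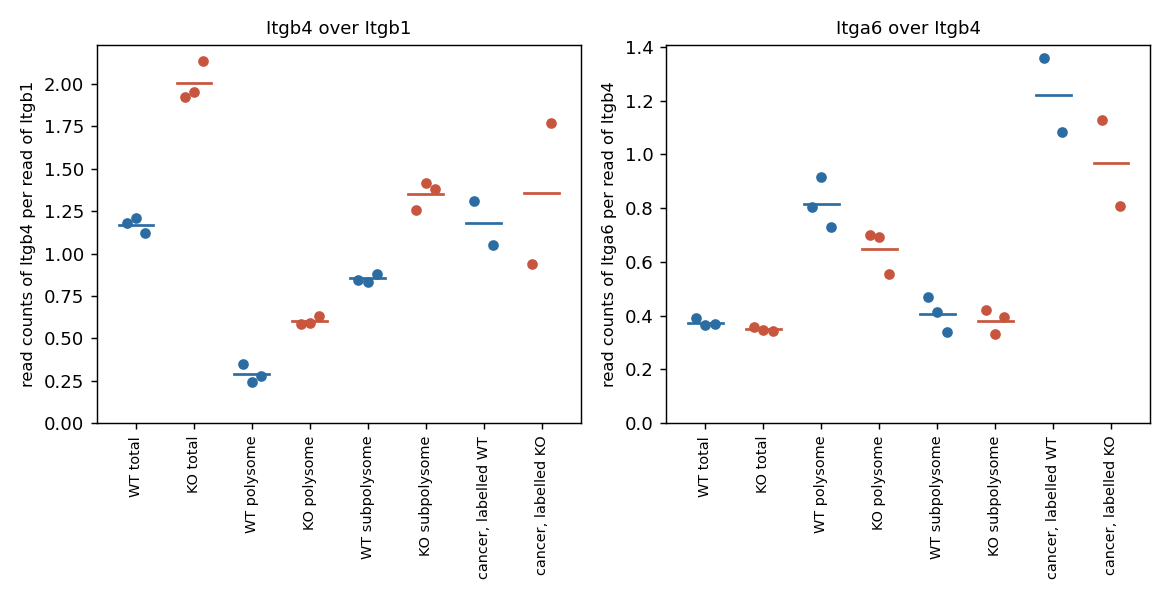
Reads of Itgb4 per read of Itgb1 (left) and of Itga6 per read of Itgb4 (right) in each library, with lines for group means and axes from 0, WT in blue and KO in red. The KO values of Itgb4 over Itgb1 lie above the WT values in total RNA (1.92 to 2.14 against 1.12 to 1.21), polysomes and subpolysomes, and the polysome values are the lowest of each genotype.

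In polysomes, the RNA on which protein is made, 4 of the 10 genes were called lower in KO and 0 higher, against 13.8% and 14.9% of 13066 genes tested. Itga5 measured 11.4, 12.2 and 13.2 CPM in WT against 2.36, 3.7 and 3.95 CPM in KO polysomes (3.62-fold lower, log2 -1.85, SE 0.19, edgeR adjusted p = 9.6e-07). Itgb1 measured 506, 564 and 546 CPM in WT against 301, 309 and 303 CPM in KO libraries (1.74-fold lower, log2 -0.80, SE 0.12, adjusted p = 0.000108). For both, no KO library came near a WT library. Itgav measured 64.2, 75.1 and 78.4 CPM in WT against 48.9, 52.6 and 37.4 CPM in KO libraries (log2 -0.62, SE 0.15, adjusted p = 0.00423). Itgb6 measured 63.9, 64.5 and 56.6 CPM in WT against 39.3, 47.7 and 42.8 CPM in KO libraries (log2 -0.48, SE 0.13, adjusted p = 0.00926), a call that was lost without KO 1 (0.0525) or without WT 2 (0.0554). Itga2 and Itga3 lay lower in every KO library without being called (log2 -0.31, adjusted p = 0.0982, and log2 -0.23, adjusted p = 0.199). With the replicate number as a block, Itga2 was called as well (log2 -0.31, adjusted p = 0.0272), which made 5 genes lower, while the share of all genes called lower rose to 19.2%. Itga6 (log2 -0.06), Itgb4 (0.26), Col17a1 (-0.03) and Dst (0.04) were not called in polysomes, and their groups overlapped.

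In subpolysomes 3 genes were called lower and 0 higher, against 11% in either direction of 12645 genes tested. Itga5 measured 25.3, 27.3 and 30 CPM in WT against 10.8, 14.4 and 9.29 CPM in KO libraries (2.36-fold lower, log2 -1.24, SE 0.17, edgeR adjusted p = 5.41e-06). Itgb1 measured 277, 294 and 283 CPM in WT against 197, 179 and 176 CPM in KO libraries (1.53-fold lower, log2 -0.61, SE 0.10, adjusted p = 7.82e-05). Itga3 measured 367, 354 and 403 CPM in WT against 305, 266 and 304 CPM in KO libraries (log2 -0.35, SE 0.11, adjusted p = 0.0209), not called without KO 2 (0.117) or without WT 3 (0.0862). Itgav lay below the WT range in each KO library but was not called (log2 -0.19, adjusted p = 0.263). The remaining 6 genes had overlapping groups and log2 differences from -0.20 (Itgb6) to 0.05 (Itgb4). Itga5 and Itgb1 were thus called lower in total RNA, polysomes and subpolysomes, and they were so with each other scaling, filter, tool and left-out library tried.

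Related genes were counted in 4 lists written from general knowledge of integrin biology. Of 19 other integrin subunits 11 were tested in total RNA, with 1 called higher and 4 lower (median log2 -0.13), against 27% higher and 26.3% lower of all genes tested. These 11 genes thus stood near the background for falls and below it for rises. The 3 with the smallest p were all rare: Itgb8 had 30, 72 and 31 counts in WT and 1, 1 and 0 in KO, Itgb3 had 20, 63 and 29 counts in WT and 2, 1 and 1 in KO, and Itga8 had 103, 53 and 122 counts in WT and 4, 7 and 12 in KO. Itgb8 and Itgb3 encode other beta partners of Itgav, and Itga8 another partner of Itgb1.

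Among hemidesmosome partners and laminin ligands, 17 of 19 were tested, 5 were called higher and 11 lower, against the same 27% and 26.3%, and the median log2 difference was -0.39. The smallest p-values belonged to Cd81, a tetraspanin, with 222, 238 and 230 CPM in WT against 103, 123 and 108 CPM in KO libraries (log2 -1.02), to Hspg2, the basement membrane proteoglycan perlecan, with 30.9, 34.6 and 29.9 CPM in WT against 7.27, 10.5 and 9.27 CPM in KO libraries (log2 -1.79), and to Lama3, with 223, 239 and 230 CPM in WT against 126, 146 and 135 CPM in KO libraries (log2 -0.74). Lama3 and Lamb3 encode chains of laminin-332, the ligand of the alpha 6 beta 4 pair. Lamb3, singled out after its value was seen, was called lower as well (log2 -0.40, SE 0.04). Plec, the cytolinker plectin that binds Itgb4, was not called (log2 -0.06, 95% interval -0.20 to 0.09, edgeR adjusted p = 0.494).

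Of 27 collagen, fibronectin and other matrix ligands, 21 were tested and 20 were called lower in KO, with 0 higher and a median log2 difference of -1.64, where 26.3% of all genes were lower. Col4a1 and Col4a2, the main collagen IV chains of basement membrane, had 31.9, 32.7 and 32.9 CPM and 38.6, 42.8 and 41.8 CPM in WT, against 2.52, 3.54 and 3.01 CPM and 3.85, 4.85 and 3.02 CPM in KO libraries (log2 -3.40 and -3.37). Tgfbi, a secreted integrin ligand, measured 79.9, 93.2 and 90.6 CPM in WT against 14.8, 14.9 and 16.2 CPM in KO libraries (log2 -2.49). Fn1, fibronectin itself and the ligand of the Itga5 and Itgb1 pair, was named after its value was seen. It was 9.41-fold lower in KO (log2 -3.23, SE 0.19). Of 50 adaptors and focal adhesion genes 47 were tested, 9 were called higher and 26 lower, against 27% and 26.3% of all genes, and the median log2 difference was -0.16. Nedd9, a docking protein of focal adhesions, measured 167, 190 and 218 CPM in WT against 37.3, 41.2 and 35.4 CPM in KO libraries (log2 -2.31), Actn1, an actin crosslinker, was at log2 -0.70 and Tln2, a talin, at -1.07. In polysomes the matrix list had 14 of 20 tested genes lower and 0 higher, and the hemidesmosome partner list 8 of 17 lower and 1 higher, where 13.8% of all genes were lower and 14.9% higher. In subpolysomes these counts were 14 of 19 lower and 0 higher, and 8 of 17 lower and 1 higher, against 11% of all genes in either direction. The other integrin subunits had 3 of 10 lower and 2 higher in polysomes and 0 of 5 called in subpolysomes, and the adaptors 8 of 46 lower and 6 higher, and 12 of 43 lower and 4 higher.

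The gradient asks how each mRNA was spread between polysomes, subpolysomes and the whole RNA pool. Set against total RNA, 8 of the 10 genes were called lower in WT polysomes and 1 higher, against 34.8% lower and 33.1% higher of 13507 genes tested. In KO 8 were called lower and 0 higher, against 33.4% and 32.7%. The share called lower stood above the background in both genotypes, and the median log2 difference was -0.85 in WT and -0.86 in KO. All 10 genes have long transcripts, at length percentiles from 63.3 (Itgb1) to 99.95 (Dst) of the genes tested. Across genes, longer transcripts had lower values (Spearman's rho -0.49 in WT and -0.53 in KO). The background was not matched for length, and the part of length in these shares was not tested. These comparisons were added after the data had been seen, and their values are relative to other mRNAs, since counts do not give the amount of RNA per fraction. Without scaling factors the median of all genes moved to -0.11 in WT and -0.09 in KO, and none of the 10 genes changed direction.

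Col17a1 and Itgb4 were the lowest. Col17a1 went from 659, 652 and 608 CPM in WT total RNA to 206, 160 and 154 CPM in WT polysomes (3.79-fold lower, log2 -1.92, SE 0.11, edgeR adjusted p = 4.23e-10), at percentile 2.81 of all genes. Itgb4 went from 527, 533 and 509 CPM to 177, 137 and 152 CPM (3.45-fold lower, log2 -1.79, SE 0.10, adjusted p = 2.84e-10), at percentile 3.79. The KO libraries showed the same order, with 156, 175 and 170 CPM of Col17a1 (log2 -1.93) and 176, 182 and 191 CPM of Itgb4 (log2 -1.58) in polysomes. Total and polysome libraries were far apart in both genotypes.

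Itgb1 took the opposite position. Its 506, 564 and 546 CPM in WT polysomes lay above the 446, 441 and 453 CPM of WT total RNA (1.17-fold, log2 0.23, SE 0.08, edgeR adjusted p = 0.0124). This call was lost without WT total RNA 2 (adjusted p = 0.0516) and without scaling factors (log2 0.15, 0.119). In KO it was 301, 309 and 303 CPM in polysomes and 274, 280 and 260 CPM in total RNA (log2 0.15, adjusted p = 0.088), a difference that DESeq2 called (log2 0.16, adjusted p = 0.0369). Itgb6 was not called in either genotype (log2 0.14 and -0.03). Between these lay Itga3 (log2 -1.13 in WT and -0.98 in KO), Itga5 (-1.10 and -1.12), Itga2 (-0.86 and -0.74), Dst (-0.83 and -0.98), Itga6 (-0.67 and -0.69) and Itgav (-0.46 and -0.65), all called lower.

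The alpha 6 beta 4 partners thus differed in their position. Itga6 reads per Itgb4 read were 0.364 to 0.389 in WT total RNA and 0.728 to 0.915 in WT polysomes, and 0.343 to 0.358 and 0.556 to 0.699 in KO. The ranges of total RNA and polysomes did not overlap, and this ratio is free of scaling.

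The base composition and length of each gene's longest coding transcript are set here beside the polysome to total RNA differences of the 10 genes. The 4 genes with the highest GC share, Itgb4 (60.0%), Itga3 (57.9%), Itga5 (57.5%) and Col17a1 (57.0%), had the 4 lowest polysome to total RNA values in both genotypes, though in KO Itga3 and Dst were level at -0.98. Dst (49.5%) and Itga6 (48.9%) followed in GC share, and Itgb1 (44.8%), Itgb6 (44.1%), Itga2 (43.7%) and Itgav (43.5%) were lowest. Itga2 was at log2 -0.86 in WT and -0.74 in KO, and Itga6 at -0.67 and -0.69. The longest transcript was that of Dst (23279 bp, log2 -0.83 in WT), followed by Itga2 (7108 bp, -0.86) and Itgav (7054 bp, -0.46). Itga3 (4861 bp, -1.13) and Itga5 (4382 bp, -1.10) were shorter, and Itgb1, the shortest (3815 bp), had the highest value. Counts merge isoforms, so the length of the Dst mRNA present is not known. Across the 12461 genes with an annotated transcript, 92.3% of those tested, Spearman's rho between the WT log2 difference and GC share was -0.25, and with transcript length it was -0.49. In KO these were -0.17 and -0.53. Genes are not independent replicates and share the same libraries, so these are descriptions. The part of base composition and length in the values of Col17a1 and Itgb4 was not tested.

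**Figure D4:**
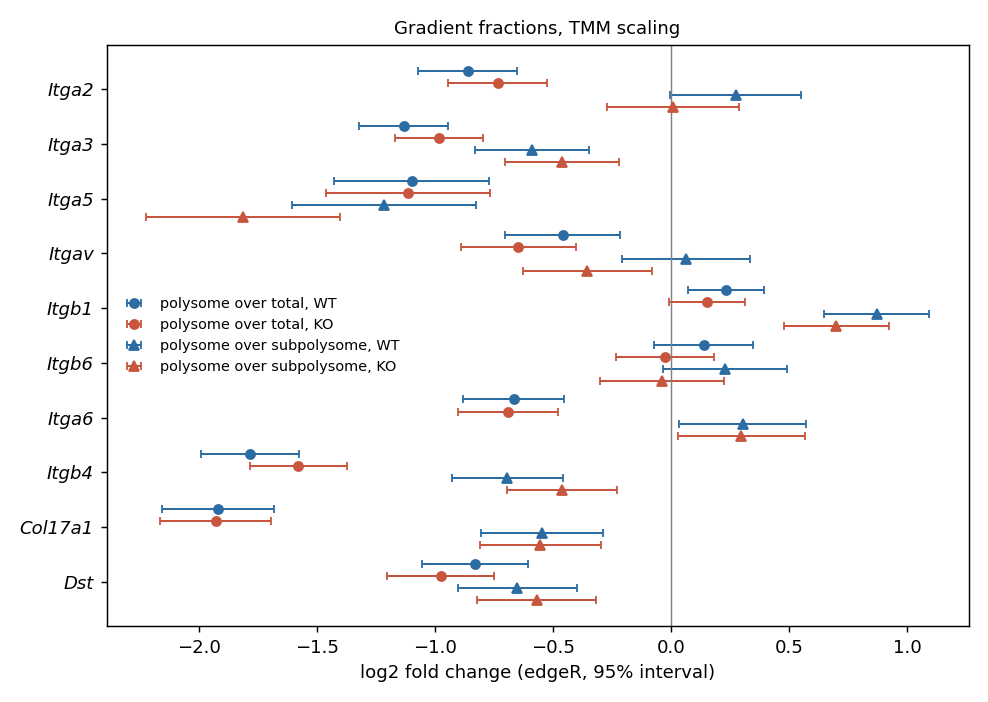
Log2 fold change of polysomes over total RNA (circles) and over subpolysomes (triangles) for each gene in WT (blue) and KO (red), as edgeR estimates with 95% intervals under TMM scaling. Col17a1 and Itgb4 lie furthest left over total RNA (-1.92 and -1.79 in WT) and Itgb1 furthest right over subpolysomes (0.87 in WT). Under library totals alone, Itga3, Itgb4, Col17a1 and Dst lie right of 0 over subpolysomes in both genotypes, and Itgav and Itgb6 do so in KO.

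Polysomes against subpolysomes gave another order. In WT 2 genes were called higher in polysomes and 5 lower, against 32.8% higher and 30.9% lower of 13392 genes tested. In KO 1 was higher and 6 lower, against 31.7% and 29.9%. Directions here depend on the scaling. The TMM factors were 1.26 to 1.42 in polysome libraries and 0.699 to 0.812 in subpolysome libraries, and without them the median of all genes moved to 0.84 in WT and 0.89 in KO. The split of all genes moved with it, from 4397 higher and 4132 lower to 7954 and 1616 in WT, and from 4240 and 4005 to 8207 and 1350 in KO.

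Itgb1 was higher in polysomes under each scaling. Its 506, 564 and 546 CPM in WT polysomes compared with 277, 294 and 283 CPM in WT subpolysomes (1.83-fold, log2 0.87, SE 0.11, edgeR adjusted p = 4.32e-07), and its 301, 309 and 303 CPM in KO with 197, 179 and 176 CPM (1.62-fold, log2 0.70, SE 0.11, adjusted p = 8.47e-06). Itga6 was called higher in WT (143, 125 and 111 CPM against 110, 101 and 84.9 CPM, log2 0.30, adjusted p = 0.0468) and not in KO (log2 0.30, adjusted p = 0.0527). The WT call did not hold with DESeq2 (0.0565), with its size factors in edgeR (0.0599), or without WT polysome 1 (0.199), WT polysome 2 (0.0767) or WT subpolysome 3 (0.131). The KO value passed with the replicate block (0.0146), without a filter on low counts (0.0262), without scaling factors (2.25e-07), and without any 1 of WT subpolysome 1 (0.0404), KO subpolysome 1 (0.0283), WT subpolysome 3 (0.0358), KO polysome 3 (0.0205), WT polysome 1 (0.0428) or WT polysome 3 (0.0474).

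Itga5 was lower in polysomes under each scaling, from 25.3, 27.3 and 30 CPM in WT subpolysomes to 11.4, 12.2 and 13.2 CPM (log2 -1.22, SE 0.19, edgeR adjusted p = 8.22e-06) and from 10.8, 14.4 and 9.29 CPM in KO subpolysomes to 2.36, 3.7 and 3.95 CPM (log2 -1.82, SE 0.20, adjusted p = 7.76e-08). Without scaling factors its WT value was no longer called (log2 -0.39, adjusted p = 0.0768). Itgb4 (log2 -0.70 in WT and -0.46 in KO), Dst (-0.65 and -0.57), Itga3 (-0.59 and -0.46) and Col17a1 (-0.55 and -0.56) were called lower in both genotypes under TMM, but turned to 0.14 and 0.42, 0.18 and 0.32, 0.24 and 0.42, and 0.28 and 0.33 without scaling factors. Itgav was called lower in KO (log2 -0.36, adjusted p = 0.0228), not without KO subpolysome 1 (0.0841), KO subpolysome 2 (0.101) or KO polysome 3 (0.136), and turned to 0.54 without scaling factors. In WT Itga2 (log2 0.27), Itgb6 (0.23) and Itgav (0.06) were not called. Itga2 passed there without WT subpolysome 3 (0.0448) or KO subpolysome 3 (0.0489), and all 3 passed without scaling factors, as Itga2 (0.89) did in KO.

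Whether genotype changed these fraction differences was tested as an interaction. For the polysome to subpolysome ratio 0 of the 10 genes were called in either direction, against 0.00747% higher and 0% lower of all genes. The unadjusted p was below 0.05 for 758 genes, among them Itga5 and Itgav, and DESeq2 called 12 genes, none of the 10. Itga5 had a log2 difference of -0.60 between genotypes (95% interval -1.16 to -0.04, edgeR adjusted p = 0.877) and Itgav one of -0.42 (-0.80 to -0.03, adjusted p = 0.877). For the polysome to total RNA ratio 0 genes of the 10 were called, against 0% of all genes in either direction, with 263 genes at an unadjusted p below 0.05 and none of the 10 among them. The intervals there ran from -0.48 to 0.45 for Itga5, from -0.31 to 0.15 for Itgb1, from -0.08 to 0.49 for Itgb4 and from -0.33 to 0.31 for Col17a1. No genotype effect on the loading of these mRNAs was thus called after adjustment in either ratio. The unadjusted intervals of Itga5 and Itgav excluded 0 in the polysome to subpolysome ratio. In the polysome to total RNA ratio they included it (log2 -0.01 for Itga5 and -0.19 for Itgav).

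Likeness of profile was measured over the 18 primary organoid libraries as the root mean square difference of centred log2 CPM, among 7427 genes. Among the 10 genes themselves, Col17a1 and Itgb4 were the closest pair (0.17), followed by Itga2 and Itga6 (0.24). Of the chains known to pair, none were each other's nearest: Itga6 and Itgb4 lay at 0.48 and Itga5 and Itgb1 at 1.08. Itgav was the nearest of these genes to Itgb6 (0.32), but Itgav itself was nearer to Itga2 (0.29). The distance of 0.32 exceeded the SD of Itgb6 over the libraries (0.23), so it does not show a shared profile. Outside the list, the gene nearest to Itga3 was Trim29 (0.083), to Itgb4 Supt5 (0.093), to Itga6 Foxj2 (0.097), to Dst Btaf1 (0.11), to Col17a1 Hnrnpm (0.11) and to Itgb1 Tmem19 (0.11). Itgb6 was nearest to Lpar2 (0.13), Itga2 to Exoc2 (0.13) and Itgav to Larp4 (0.14). The gene nearest to Itga5 was St3gal3 (0.37). Itga5 also varied most of the 10 genes (SD 1.11), and distances were not scaled to a gene's own SD. These are descriptions of likeness over libraries in which fraction and genotype both vary.

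In the bladder cancer organoids, total RNA was compared with that of primary organoids, with equal weight on each labelled genotype. The submitters' notes name Bowtie for the primary libraries only, and the labels list the cancer set apart, so tumour origin and a difference in preparation or processing cannot be told apart. The contrast gives the same result whichever labelled cancer group is called WT. A library placed in the wrong group would still change the fitted values and the spread behind the p-values. Itga6, Itga3, Itgb1, Itgb4, Itgav and Dst were higher in cancer, Itga5, Itga2 and Itgb6 were lower, and Col17a1 was not called. Of the 10 genes 6 were called higher and 3 lower, against 38.8% higher and 39% lower of 14305 genes tested, with a median log2 difference of 0.80 against -0.03 for all genes. Cell type markers moved in the same comparison. All 7 luminal markers were called lower, as were Epcam and Cdh1, which together lay at 164 to 228 CPM in the cancer libraries. Of the 5 basal markers 3 were called higher and 1 lower, with sums of 11562 to 16628 CPM in cancer. Their part in the differences of the 10 genes was not tested.

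Itga6 stood out most, at 1401 and 890 CPM in the libraries labelled WT and 844 and 2058 CPM in those labelled KO, against at most 205 CPM in primary total RNA (6.57-fold, log2 2.72, SE 0.24, edgeR adjusted p = 1.14e-05). Itgb4 had 1033 and 823 CPM in the libraries labelled WT and 749 and 2545 CPM in those labelled KO (2.28-fold, log2 1.19, SE 0.28, adjusted p = 0.00443). Every cancer library exceeded every primary total RNA library for both chains. With the larger difference in Itga6, its reads per Itgb4 read were 1.36, 1.08, 1.13 and 0.809 in the cancer libraries, above the highest primary total RNA value of 0.389.

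Itga3 had 1830 and 1085 CPM in the cancer libraries labelled WT and 1257 and 1573 CPM in those labelled KO (2.93-fold higher than primary, log2 1.55, SE 0.14, edgeR adjusted p = 1.23e-05). Itgb1 had 789, 783, 798 and 1437 CPM (2.64-fold higher, log2 1.40, SE 0.14, adjusted p = 2.7e-05). Itgav had 198, 139, 143 and 202 CPM (log2 1.00, SE 0.13) and Dst 703, 736, 665 and 894 CPM (log2 0.59, SE 0.08). Each of these lay above all 6 primary total RNA libraries. The library labelled KO 2 was the highest of the 4 for Itgb1, Itgb4, Itga5, Itga6, Itgav, Dst and Col17a1.

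Col17a1 was not called (log2 0.43, SE 0.23, edgeR adjusted p = 0.119). It had 385 CPM in the library labelled WT 1, below every primary total RNA library, and 1020, 966 and 1195 CPM in the other 3, above every primary total RNA library. Without WT 1 its difference was called (log2 0.69, adjusted p = 0.0001). Col17a1 reads per Itgb4 read were 0.372 and 1.24 in the libraries labelled WT and 1.29 and 0.47 in those labelled KO, so no single ratio describes the cancer set.

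Itga5 was low throughout the cancer set, at 4.69, 3.24, 4.27 and 5.42 CPM, under the lowest primary total RNA library (5.88 CPM, KO) and 3.14-fold below primary total RNA as a whole (log2 -1.65, SE 0.16, edgeR adjusted p = 1.97e-05). Set against primary WT alone the log2 difference was -2.55, and against primary KO alone -0.75. Itga2 had 14, 16.2, 30.9 and 22.5 CPM (log2 -1.32, SE 0.10, adjusted p = 5.78e-06) and Itgb6 6.37, 17.7, 35.9 and 31 CPM (log2 -1.31, SE 0.25, adjusted p = 0.00151). Both lay below all primary total RNA libraries in each cancer library.

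**Figure D5:**
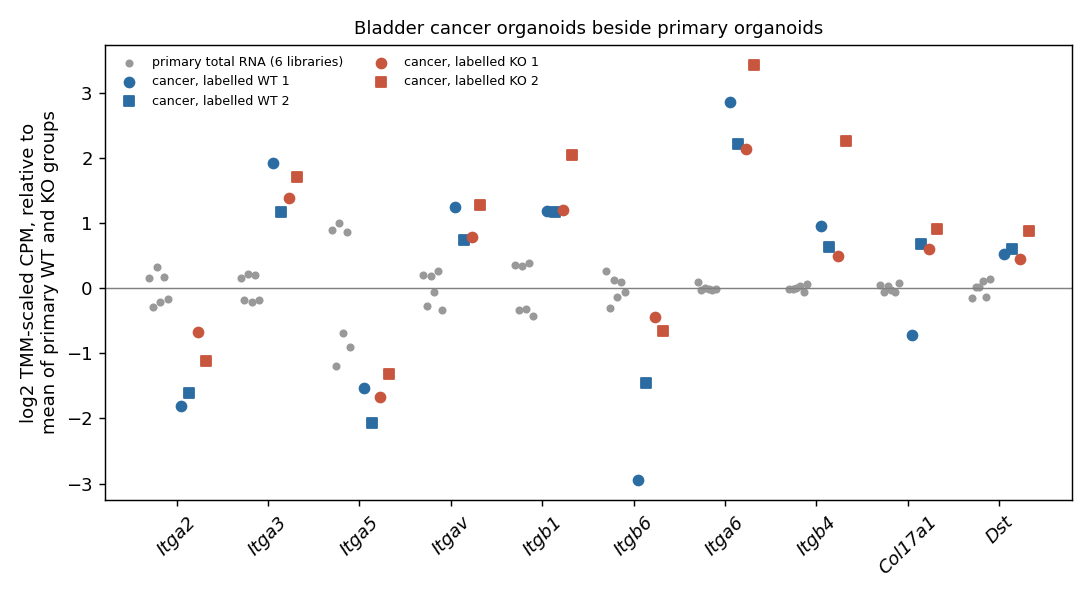
Log2 TMM-scaled CPM of each gene in total RNA relative to the mean of the primary WT and KO groups, for the 6 primary libraries (grey, WT then KO) and the 4 cancer libraries by label (blue WT, red KO; circles 1, squares 2). Itga6, Itga3, Itgb1, Itgb4, Itgav and Dst lie above and Itga5, Itga2 and Itgb6 below the primary libraries, and Col17a1 of the library labelled WT 1 lies apart from the other 3.

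Between the cancer libraries as labelled, 0 of the 10 genes were called in either direction, as were 0% of 12681 genes higher and 0% lower. The unadjusted p was below 0.05 for 96 genes, Itga2 among them, and DESeq2 called 11 genes, none of the 10. In libraries simulated at this size edgeR called none of the genes given a known change, and most calls of DESeq2 fell on unchanged genes, so the lack of calls does not bound these differences. Intervals were wide with 2 libraries per label: the log2 difference of Itga5 ran from -0.84 to 1.43, that of Itgb1 from -0.39 to 1.42 and that of Itgb4 from -0.94 to 2.60. The difference between the labelled KO effect in cancer and that in primary organoids was called for 2 genes higher and 0 lower, against 1.53% higher and 1.6% lower of all genes. These were Itga5 (log2 2.08, SE 0.30, edgeR adjusted p = 0.0167) and Itga2 (log2 1.22, SE 0.20, adjusted p = 0.0236), which fell in primary KO and had log2 differences of 0.29 and 0.83 in cancer. Neither call held with the replicate block (0.0729 for Itga5 and 0.0985 for Itga2). That block tied cancer libraries by number, though same-numbered ones deviated in opposite directions (r = -0.43). Itga5 was also not called without primary WT 2 (0.0652), WT 3 (0.0666) or KO 3 (0.0663), and Itga2 not without WT 2 (0.0788), WT 3 (0.0778), KO 1 (0.0813), KO 2 (0.0617) or KO 3 (0.0788). Other genes passed in turn: Itgb1 (0.00257) and Itgb6 (0.00628) with DESeq2, Itga3 (0.0408) and Itgb6 (0.0153) without the library labelled WT 1, Itgb6 (0.00035) and Col17a1 (0.00205) without WT 2, Itgb1 (0.000159) and Itgb4 (0.00184) without KO 1, and Itgb1 (0.00663) without KO 2. A fit with a single library left in a labelled group assumes that it varies like the other groups.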

How the data were processed

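The authors deposited 22 tables of raw read counts, 1 per library, as whole numbers by gene symbol with no normalization applied. Per the submitters' processing notes the genome was mm10, reads were counted with HTSeq, and Bowtie was named for the 18 primary organoid libraries. Per the labels' protocols RNA was column purified with DNase treatment. Annotation, strand setting and versions are not given there.

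Each comparison used edgeR 4.0.16 under R 4.3.3, with TMM scaling, the filterByExpr filter and the quasi-likelihood F test (Benjamini-Hochberg adjustment over all genes tested, threshold 0.05). Data were simulated with log2 changes of 1 or 2 in either direction in 200 genes. For these 2 sizes edgeR recovered 88.8% and 99.0% in KO against WT total RNA and 78.4% and 80.6% in WT polysomes against subpolysomes. It recovered none between the labelled cancer libraries. Calls on unchanged genes made up 7.5% and 5.49% with edgeR and 13.3% and 19.5% with DESeq2 in the first 2 comparisons. All genes besides the 200 were simulated without a change, whereas 27% were called higher and 26.3% lower in the real total RNA comparison. These rates therefore need not hold for the real calls. Smaller changes, as most of those called here in total RNA were, were not simulated. Standard errors are the log2 difference over the square root of F. Positions and transcripts came from a GRCm38 annotation. Replicates of a group differed by 11.9 to 247 times the degrees of freedom in a chi-square test, so none was a copy.

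Same-numbered WT and KO polysome libraries deviated together (r of 0.19, 0.20 and 0.25 over genes), so the numbers pair them and the blocked values are given where a call changes. This pairing comes from the data, not the labels. Named genes were all 10 listed genes, the 3 called members with the smallest p of each related list in total RNA, and the most similar gene to each. The genes, lists and tests were chosen with earlier results of these data known. Alternatives were DESeq2 1.42.0, its size factors, library totals, no filter, a replicate block and each library left out.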

Additional observations from a re-analysis of the deposited data

Results flagged for a closer look

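The labelled KO effect differed between cancer and primary organoids for Itga5 (log2 difference of 2.08, higher in cancer) and Itga2 (1.22, higher in cancer) in a test of the difference itself (edgeR, 10 libraries). Itga5 lay at 4.69 and 3.24 CPM in the cancer libraries labelled WT and 4.27 and 5.42 CPM in those labelled KO, all below every primary total RNA library. Itga2 lay at 14 and 16.2 CPM in the former and 30.9 and 22.5 CPM in the latter. Arid1a counts ran against the labels of WT 1 and KO 1, and neither call held with the replicate block. That block tied cancer libraries by number, though same-numbered ones deviated in opposite directions (r = -0.43). Both calls were also lost when some single primary libraries were left out.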

How the results depend on the processing

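Calls of Itga5, Itgb1, Itga3, Itga2, Itgav, Itgb6 and Dst in total RNA held under each of the alternatives run: DESeq2, its size factors, library totals, no filter, the replicate block and each library left out. Itgb4 was also called there under library totals (log2 0.11, adjusted p = 0.0417), a setting chosen after seeing the data. Over all comparisons and genes, 1642 alternative values kept direction and call, 28 gained a call, 25 lost one and 75 changed sign. Where a cause is not the smaller sample, it was not tested.

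Under library totals the sign changed for these log2 values: Itga6 in total RNA (0.0056), Col17a1 in KO against WT polysomes (0.012), Itga3, Itgb4, Col17a1 and Dst in WT polysomes against subpolysomes (0.24, 0.14, 0.28 and 0.18), Itga3, Itgav, Itgb4, Itgb6, Col17a1 and Dst in KO (0.42, 0.54, 0.42, 0.85, 0.33 and 0.32), Itga6 and Col17a1 in the genotype effect on the polysome to subpolysome ratio (0.065 and 0.051), and Itgav in the labelled cancer comparison (-0.012). DESeq2's size factors and DESeq2 moved Itga2 in KO polysomes against subpolysomes to -0.0086 and -0.0078 and the genotype effect on Itga6 in that ratio to 0.00089 and 0.00050.

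With the replicate block the sign changed for Col17a1 in subpolysomes (0.0014), Col17a1 in the genotype effect on the polysome to total RNA ratio (0.0026) and Itga3 between labelled cancer libraries (0.00090, and 0.00092 with crossed numbers, since same-numbered cancer libraries deviated in opposite directions, r = -0.43; 0 genes were called either way). Besides the calls of Itga2 in polysomes and of Itga6 in KO polysomes against subpolysomes, the block ended both calls in the difference of KO effects (0 genes of 2, and 201 of all genes against 448) and moved the genotype effect on the polysome to subpolysome ratio to 12 genes from 1. It changed no other call. Same-numbered WT and KO libraries of total RNA did not deviate together in every pair (r from -0.066 to 0.15). In subpolysomes r was small but positive in every same-numbered pair (0.034 to 0.069), against at most 0.014 for unlike numbers. Within a genotype, same-numbered polysome libraries also had positive r with subpolysome and total RNA libraries (0.047 to 0.21), where unlike numbers reached 0.097.

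DESeq2 called 12 genes in the genotype effect on the polysome to subpolysome ratio, and no filter gave 29. It called 11 genes in the labelled cancer comparison against 0, and 4 of the 10 genes and 1664 of all genes in the difference of KO effects.

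Leaving out 1 library, the difference of KO effects held 0 to 4 of the 10 genes and 72 to 2376 of all genes, and the genotype effect on the polysome to subpolysome ratio 0 to 4 of all genes. Values that crossed 0 ranged in KO against WT as follows. In total RNA Itga6 ran from -0.049 to 0.025 and Col17a1 from -0.032 to 0.040. In polysomes Itga6 ran from -0.16 to 0.042, Col17a1 from -0.11 to 0.13 and Dst from -0.069 to 0.14. In subpolysomes Itga6 ran from -0.15 to 0.045, Col17a1 from -0.069 to 0.079, Itga2 from -0.12 to 0.027 and Dst from -0.083 to 0.016. Polysomes against subpolysomes in KO gave -0.061 to 0.11 for Itga2 and -0.12 to 0.12 for Itgb6, and against total RNA in KO -0.099 to 0.037 for Itgb6. The genotype effect on the polysome to subpolysome ratio gave -0.12 to 0.091 for Itga6, -0.11 to 0.13 for Col17a1 and -0.022 to 0.16 for Dst. On the polysome to total RNA ratio it gave -0.15 to 0.18 for Itga5, -0.12 to 0.087 for Itga6 and -0.098 to 0.15 for Col17a1. Between labelled cancer libraries Itga3 ran from -0.36 to 0.38, Itgav from -0.23 to 0.31, Itga6 from -0.44 to 0.84, Itgb4 from -0.31 to 1.45 and Dst from -0.11 to 0.31. In the difference of KO effects Itga3 ran from -0.031 to 0.72, Dst from -0.31 to 0.083, Itga6 from -0.41 to 0.84 and Itgb4 from -0.38 to 1.35, and in cancer against primary Col17a1 ran from -0.011 to 0.69.

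The lowest level among the 10 genes in primary organoids, that of Itga5 in KO polysomes, rested on 220 to 307 counts per library. The precision is set by 3 libraries per group, and by 2 per label in cancer, where labels and Arid1a counts disagree.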
